A study of Mus musculus with 14 samples.

Results

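A set of 9 germline and pluripotency genes whose silence in body cells has been linked to DNA methylation was followed in blood-forming cells of mice with a conditional deletion of Dnmt1: Ddx4, Sycp3, Sycp1, Mael, Tdrd1, Stra8, Piwil2, Pou5f1 and Zfp42. They were taken by symbol, with no filter on their level, and the question was whether they stay silent in cells with the Mx-Cre transgene. The platform annotation gives 1 probe set each to 8 of the 9 genes, out of 12393 genes and 22626 probe sets without controls. Mael has no probe set under its symbol in that annotation, so 8 genes were measured.

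Long-term hematopoietic stem cells (LT-HSCs, Lineage- c-Kit+ Sca-1+ CD34-), multipotent progenitors (MPPs, Lineage- c-Kit+ Sca-1+ CD34+) and myeloid progenitors (Lineage- c-Kit+ Sca-1-) were sorted from mouse bone marrow, and their amplified RNA was hybridized to 14 Affymetrix arrays. Every mouse was Dnmt1 fl/fl on a C57BL/6 background, was 8 to 12 weeks old and had been injected 7 times with 25 ug/kg of poly(I)-poly(C), with marrow collected 4 days after the last dose. Knockout mice carried Mx-Cre, an interferon-responsive transgene that poly(I)-poly(C) switches on, and control mice had no Cre but had the same injections. There were 2 arrays per genotype for LT-HSCs, 2 for MPPs and 3 for myeloid progenitors, numbered as 7 littermate pairs. Each array held marrow pooled from 4 to 6 mice, so the errors below describe pools and not single mice. Mx-Cre acts in interferon-responsive cells in general, and the labels do not give the share of cells in which Dnmt1 was deleted.

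Dnmt1 copies methylation onto newly made DNA strands at each division, which keeps methylated promoters methylated in daughter cells. In germ cells the genes followed here make meiotic chromosomes, defend the genome against transposons through small piRNAs, or start meiosis, and in early embryos Pou5f1 and Zfp42 belong to the pluripotency network. In adult blood cells germline and pluripotency genes are mostly off, and many germline promoters carry dense methylation there. Sycp3 nevertheless gave signal in control MPPs and myeloid progenitors here, as described below.

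The arrays gave median intensities of 41.1 to 49.1, and arrays of the same group correlated with r of 0.939 to 0.988. A probe set was called detected on an array where its intensity was above that array's 40th percentile, which lay between 19.8 and 26.9. Of the 2 Dnmt1 probe sets, 1435122_x_at was lower on the knockout array of 7 of 7 pairs, with an intensity of 1228 to 2107 on control arrays and 501 to 870 on knockout arrays (-1.05 ± 0.15 on the log2 scale, limma adjusted p = 0.00692), and 1422946_a_at was also lower in 7 of 7 pairs (-0.63 ± 0.14, adjusted p = 0.168). The labels do not say which exons were removed, so these probe sets check the genotype only in part. All 7 measured blood progenitor markers, among them Ptprc and Kit, were detected in every group, and the CD34 gate showed as Cd34 intensities of 7.55 to 96.8 on control and 20.5 to 68.9 on knockout LT-HSC arrays. In MPPs Cd34 was at 748 to 1021 on control and 310 to 615 on knockout arrays, which did not overlap. LT-HSC arrays also carried B cell marker signal, with a sum over 9 markers of 7114 to 13291 on control and 6318 to 9976 on knockout arrays. The sums were 303 to 658 and 183 to 2549 in MPPs, and 483 to 1028 and 422 to 1112 in myeloid progenitors.

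As a scale for silence, 32 probe sets of 22 genes of pancreas, eye, kidney, milk, heart, muscle, brain and pituitary were read on the same arrays. Their median intensity was 6.16, and 8.48% of their values counted as detected (8.93% on control and 8.04% on knockout arrays), against 60.02% of all values. The heart troponin gene Tnni3, named after its values were seen, was detected on every array and so is no silent gene here, and 22 of the 32 probe sets were detected on none. A difference below is the knockout level less the control level, in log2(intensity + 16) units, and ± gives its standard error (SE) in a limma fit over all arrays. This scale compresses changes of genes near background. Where control and knockout values do not overlap, this describes the arrays only, since the share of all probe sets without overlap was not counted. A lower share of expressing cells and less RNA per cell give the same signal in such bulk samples and cannot be told apart.

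Of the 8 measured genes, 5 gave no signal above the detection level in any of the 14 samples, with or without Cre: Sycp1, Tdrd1, Stra8, Pou5f1 and Zfp42. Over all probe sets 26.4% were never detected. Sycp3 was detected in MPPs and myeloid progenitors of both genotypes, Ddx4 appeared on single arrays, and Piwil2 was detected on 5 of 7 knockout arrays and on 0 of 7 control arrays. Of the 56 member values of each genotype, 6 on control arrays (10.7%) and 12 on knockout arrays (21.4%) counted as detected. By gene the control and knockout counts were 0 and 5 for Piwil2, 1 and 2 for Ddx4 and 5 and 5 for Sycp3. The higher pooled count is thus mostly Piwil2 and describes no shift of the set. Such counts depend on the detection level, since at the 60th percentile Piwil2 was detected on 0 knockout arrays and Sycp3 on 2 arrays. None of the 8 genes passed the limma threshold (adjusted p under 0.05 over all probe sets) in LT-HSCs, MPPs, myeloid progenitors or on average over the 3 populations. At an unadjusted p under 0.05 there was 1 of 8 in LT-HSCs, 0 in MPPs, 0 in myeloid progenitors and 1 on average, in both cases Piwil2. The share of all probe sets called was 0.0575% in LT-HSCs, 0.0265% in MPPs, 0.0928% in myeloid progenitors and 0.23% on average, so a count of 0 of 8 is near that background. Unadjusted, 3.03% of all probe sets were higher and 2.65% lower on average, and this share was not counted within single populations. The median difference of the 8 genes was 0.00 in LT-HSCs, 0.04 in MPPs, 0.07 in myeloid progenitors and -0.02 on average, beside medians no farther from 0 than -0.01 over all probe sets.

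**Figure D1:**
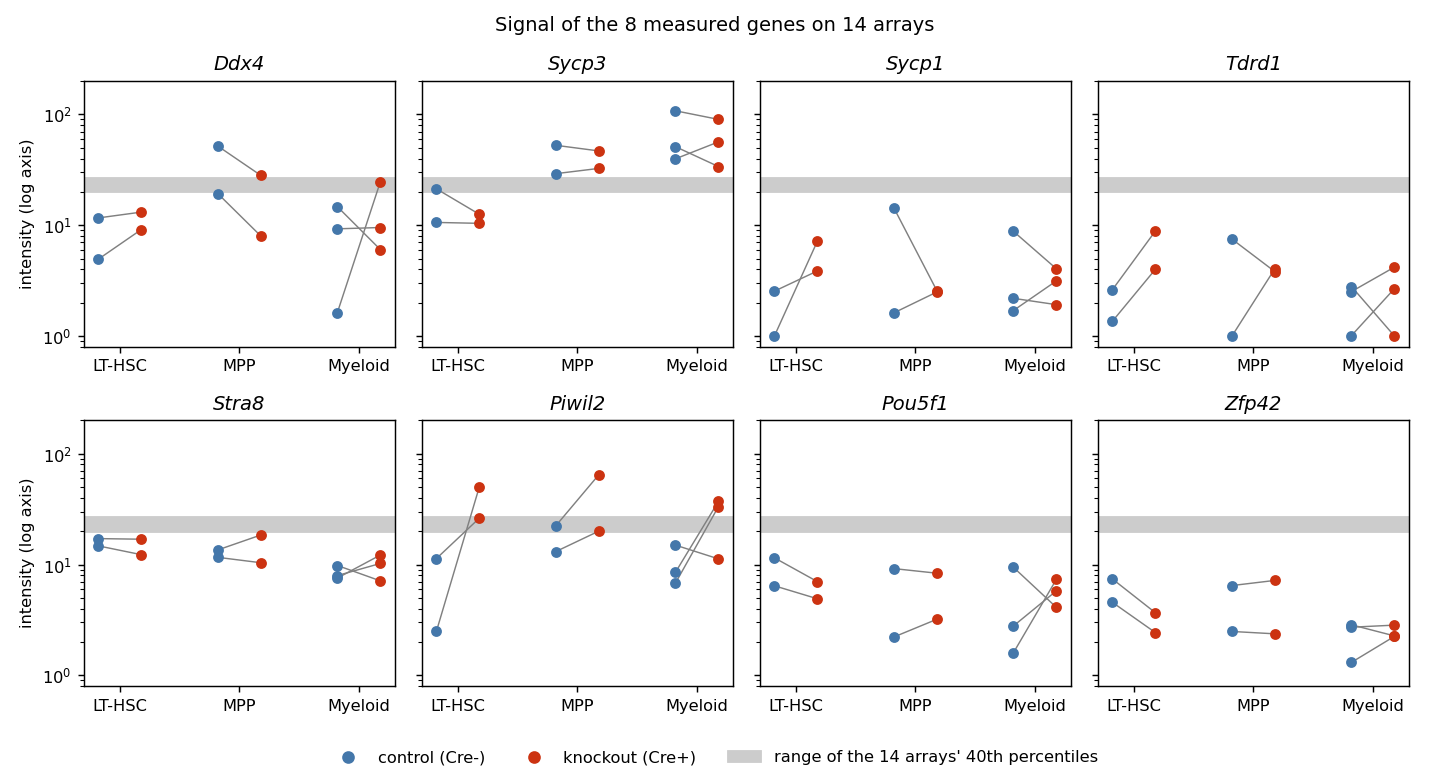
Intensity (log axis) of the 8 measured genes in LT-HSCs, MPPs and myeloid progenitors, with 1 point per array, control arrays in blue, knockout arrays in red and a line joining each littermate pair; the grey band is the range of the 14 arrays' 40th percentiles (19.8 to 26.9). Sycp1, Tdrd1, Stra8, Pou5f1 and Zfp42 lie below the band throughout, Sycp3 lies above it in MPPs and myeloid progenitors, and Piwil2 is above its array's percentile on 5 knockout arrays only.

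Some promoters of these genes hold the same short run of letters, which the choice of genes did not use, and the difference from other promoters was not tested. Of the 9 genes, 8 matched the RefSeq promoter table (GRCm38.p6), and Piwil2 did not. In the 250 bases before the first listed start, the E-box CACGTG, the core letters bound by MYC and MAX family factors, stood in 5 of 8 members (Ddx4, Sycp3, Sycp1, Mael and Tdrd1), against 6.02% of the 32851 promoters in the table. The letters read the same on both strands. The E2F6-type letters TTCCCGCC, searched on both strands, stood in Ddx4 and in no other member, against 1.86% of all promoters. A match is a run of letters and shows no binding, and the arrays hold no methylation values. The promoters of the 4 measured genes with the E-box are given 5′ to 3′ on the gene's strand with the matched letters in capitals, followed by Pou5f1, which has neither match, and by Dazl, a germline gene that rose on these arrays and has neither match.
Ddx4 (chr13:112652311-112652560, minus strand): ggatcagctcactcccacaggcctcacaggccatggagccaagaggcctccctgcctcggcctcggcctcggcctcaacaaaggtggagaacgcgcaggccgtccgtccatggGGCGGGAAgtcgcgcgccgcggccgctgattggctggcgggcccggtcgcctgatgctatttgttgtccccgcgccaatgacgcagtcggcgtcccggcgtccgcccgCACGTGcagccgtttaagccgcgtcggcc
Sycp3 (chr10:88459337-88459586, plus strand): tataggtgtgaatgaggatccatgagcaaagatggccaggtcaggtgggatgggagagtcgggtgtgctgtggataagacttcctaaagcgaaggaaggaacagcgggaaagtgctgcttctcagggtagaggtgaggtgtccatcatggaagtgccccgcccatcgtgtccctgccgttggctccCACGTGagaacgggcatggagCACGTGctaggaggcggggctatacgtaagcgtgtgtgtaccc
Sycp1 (chr3:102936101-102936350, minus strand): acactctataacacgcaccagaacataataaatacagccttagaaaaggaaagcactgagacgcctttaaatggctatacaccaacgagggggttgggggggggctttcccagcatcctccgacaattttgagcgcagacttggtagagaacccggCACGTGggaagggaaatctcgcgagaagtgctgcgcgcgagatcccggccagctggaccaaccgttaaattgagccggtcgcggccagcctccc
Tdrd1 (chr19:56825959-56826208, plus strand): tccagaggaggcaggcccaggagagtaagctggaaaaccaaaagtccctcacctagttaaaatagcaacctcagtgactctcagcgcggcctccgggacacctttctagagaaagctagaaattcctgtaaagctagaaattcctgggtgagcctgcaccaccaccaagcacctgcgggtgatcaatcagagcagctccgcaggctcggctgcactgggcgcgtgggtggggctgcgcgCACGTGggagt
Pou5f1 (chr17:35505782-35506031, plus strand): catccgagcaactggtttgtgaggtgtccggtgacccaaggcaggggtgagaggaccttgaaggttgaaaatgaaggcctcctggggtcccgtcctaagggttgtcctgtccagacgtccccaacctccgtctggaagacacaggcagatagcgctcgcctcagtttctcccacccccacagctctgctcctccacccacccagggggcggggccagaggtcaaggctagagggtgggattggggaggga
Dazl (chr17:50293621-50293870, minus strand): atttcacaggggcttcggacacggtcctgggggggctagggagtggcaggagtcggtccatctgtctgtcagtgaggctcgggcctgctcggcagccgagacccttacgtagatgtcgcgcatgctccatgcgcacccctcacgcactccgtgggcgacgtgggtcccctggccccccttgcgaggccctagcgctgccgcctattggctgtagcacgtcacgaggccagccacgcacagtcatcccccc

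The first base of the E-box lay at -29 from the start in Ddx4, at -64 and -43 in Sycp3, at -94 in Sycp1, at -223 in Mael and at -11 in Tdrd1, counting the base before the start as -1. The capitals further upstream in Ddx4, at -137, are the E2F6-type letters on the opposite strand. At the first listed start, every member with the E-box had a higher ratio of observed to expected CpG than every member without it. CACGTG itself holds a CpG, and its share over all promoters was not matched for CpG content. The ratio was 1.00 in Ddx4 (31 CpGs, above 94.4% of all promoters), 0.89 in Sycp1 (17), 0.75 in Mael (18) and 0.64 in Sycp3 (12). It was 0.53 in Tdrd1, 0.42 in Zfp42, 0.33 in Pou5f1 and 0.27 in Stra8. The median over all promoters was 0.37, and 34.0% reached 0.6, as 4 of the 8 members did. Tdrd1 has 3 listed starts, with ratios of 0.53, 0.86 and 0.25, and Pou5f1 has 2, with 0.33 and 0.47.

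The same windows were read for 7 genes that rose in these knockout cells (Dazl, Rhox5, Tex19.1, Tex19.2, Trap1a, Mnd1 and Dpep3). None of the 7 held CACGTG or TTCCCGCC, which stood in 6.02% and 1.86% of all promoters. A CpG ratio of 0.6 was reached by 2 of 7, Dazl at 0.71 and Tex19.1 at 0.64, and by 34.0% of all promoters. For 7 genes these counts are near the shares over all promoters, so they describe no trait of the genes that rose. These 7 were chosen for their rise, and the difference from the members in letters was not tested.

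**Figure D2:**
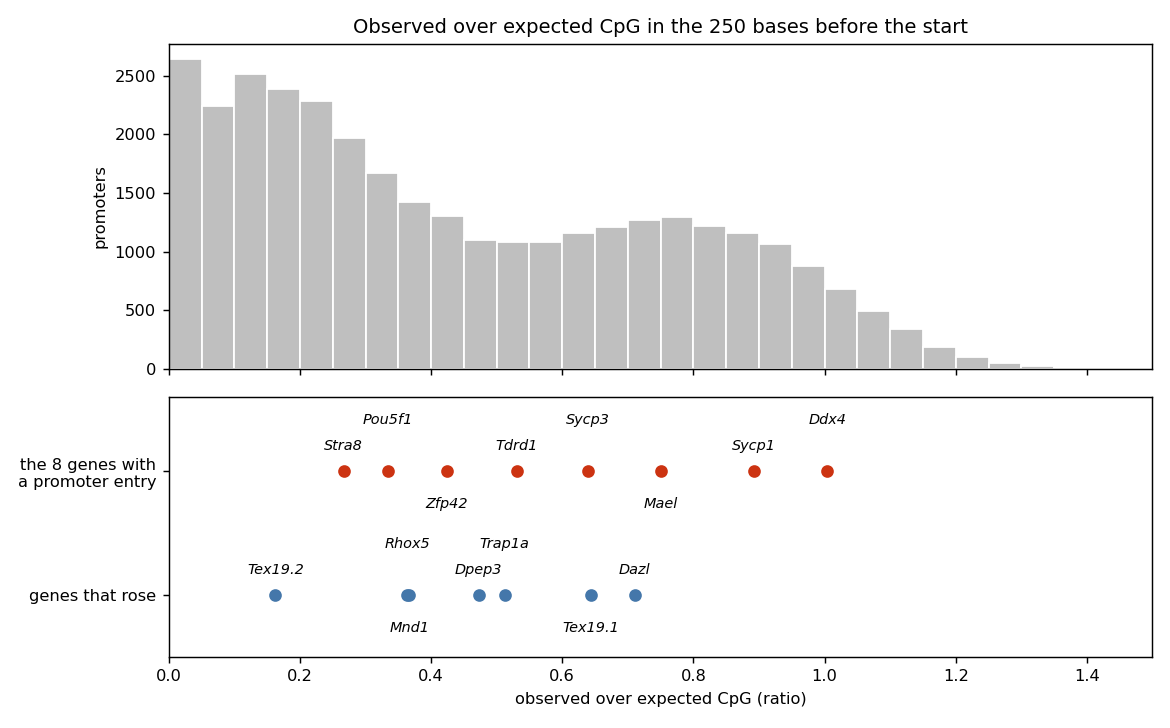
Ratio of observed to expected CpG in the 250 bases before the start. The upper panel counts all 32851 promoters of the RefSeq table, and the lower panel places 8 of the genes followed here (first listed start, red) and 7 genes that rose in knockout cells (blue). The members run from 0.27 (Stra8) to 1.00 (Ddx4), and the genes that rose run from 0.16 (Tex19.2) to 0.71 (Dazl).

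Among the genes of the synaptonemal complex, the protein ladder that joins paired chromosomes in meiosis, Sycp1 makes the crosswise filament. Its intensity (probe set 1427291_at, Entrez Gene 20957) was 1.00 and 2.54 on control and 7.19 and 3.87 on knockout LT-HSC arrays. In MPPs it was 14.32 and 1.62 on control and 2.56 and 2.50 on knockout arrays, and in myeloid progenitors 8.81, 1.70 and 2.19 against 4.04, 3.15 and 1.92. The knockout values were above the control values in LT-HSCs and overlapped them in MPPs and myeloid progenitors, all of them below the detection level. On average Sycp1 differed by -0.04 ± 0.11 (95% confidence interval -0.27 to 0.20).

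Sycp3, which builds the lateral elements along each chromosome axis, was the member with signal in control cells of more than 1 population. Its intensity (1449534_at, Entrez Gene 20962) was 10.60 and 21.31 on control and 10.40 and 12.54 on knockout LT-HSC arrays. In MPPs it was 29.20 and 52.61 against 32.57 and 46.79, and in myeloid progenitors 51.16, 39.72 and 107.80 against 33.85, 56.50 and 90.16. All 10 MPP and myeloid progenitor arrays counted as detected and no LT-HSC array did, and the genotypes overlapped in MPPs and myeloid progenitors. The knockout array was higher in 2 of 7 pairs, and the differences were -0.23 in LT-HSCs, 0.03 in MPPs, -0.08 in myeloid progenitors and -0.09 ± 0.23 on average (-0.58 to 0.40).

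Between control populations the mean level of Sycp3 went up from LT-HSCs to MPPs to myeloid progenitors, but no comparison in this order passed the threshold. Control LT-HSCs minus control myeloid progenitors gave -1.32 ± 0.38 (limma adjusted p = 0.0849, range over the alternatives 0.0568 to 0.436), which did not pass. The neighbours in that order gave -0.76 ± 0.42 for LT-HSCs against MPPs (limma adjusted p = 0.499). For MPPs against myeloid progenitors the difference was -0.56 ± 0.38 (adjusted p = 0.809), so neither passed. The genes whose normalized values went most closely with Sycp3 over the 14 arrays were the basophil protease gene Mcpt8 (Pearson r = 0.957), Chpt1 (0.944) and Sem1 (0.932), ranked over 13677 probe sets detected on at least 3 arrays. The arrays share these population differences, so r describes the order of the samples.

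Across all 8 genes 0 of the 24 comparisons between control populations passed, and 4 had an unadjusted limma p under 0.05. They were Ddx4 in MPPs against each of the others, and Sycp3 and the never-detected Zfp42 in LT-HSCs against myeloid progenitors. The unadjusted share of all probe sets was not counted for these comparisons, so the 4 have no background beside them. At the adjusted threshold, 1.05% of all probe sets differed between control LT-HSCs and MPPs. The share was 3.31% between LT-HSCs and myeloid progenitors and 0.0309% between MPPs and myeloid progenitors. The knockout effects were compared between populations in 24 further tests, of which 0 passed and 0 had an unadjusted p under 0.05. The share of all probe sets called in those 3 comparisons was 0%.

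Stra8, the retinoic acid target that lets germ cells enter meiosis, stayed below the detection level on every array. Its intensity (1420568_at, Entrez Gene 20899) ran from 7.55 to 17.14 with a median of 11.61 on control arrays and from 7.12 to 18.48 with a median of 12.19 on knockout arrays. The genotypes overlapped over nearly the whole range. The difference on average was 0.02 ± 0.10 (-0.19 to 0.24), with the knockout array higher in 3 of 7 pairs.

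Ddx4, the germ cell RNA helicase also called VASA, gave scattered signal. Its intensity (1427242_at, Entrez Gene 13206) was 4.94 and 11.64 on control and 9.15 and 13.14 on knockout LT-HSC arrays. In MPPs it was 51.74 and 19.27 against 28.12 and 7.98, and in myeloid progenitors 14.70, 1.63 and 9.28 against 6.02, 24.77 and 9.54. Detection was limited to array 1 of the MPPs in both genotypes and knockout array 2 of the myeloid progenitors, and the genotypes overlapped in each population. The knockout array was lower in both MPP pairs (-0.58 ± 0.38) and higher in both LT-HSC pairs (0.12), and the difference between these effects did not pass (-0.70, limma unadjusted p = 0.219). On average Ddx4 differed by -0.08 ± 0.21 (-0.53 to 0.37). Control LT-HSCs minus control MPPs gave -1.003 (adjusted p = 0.301) and control MPPs minus control myeloid progenitors gave 0.94 (adjusted p = 0.507), neither past the threshold. Nearest to Ddx4 over the 14 arrays were F2rl3 (r = 0.845), Cetn3 (0.843) and Calcrl (0.827).

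Of the piRNA pathway members, Tdrd1 makes a tudor-domain scaffold that gathers PIWI proteins in germ cell granules. Its intensity (1421513_at, Entrez Gene 83561) was 2.62 and 1.36 on control and 8.88 and 4.01 on knockout LT-HSC arrays. In MPPs it was 7.50 and 1.00 against 3.81 and 4.06, and in myeloid progenitors 1.01, 2.52 and 2.80 against 2.68, 4.19 and 1.00. The 2 knockout LT-HSC values were above the 2 control values, and the genotypes overlapped in MPPs and myeloid progenitors. All values were below the detection level. The difference was 0.28 ± 0.14 in LT-HSCs (limma adjusted p = 0.732) and 0.13 ± 0.08 on average (-0.04 to 0.29, adjusted p = 0.934), with the knockout array higher in 5 of 7 pairs.

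Piwil2, the PIWI protein MILI that binds piRNAs in the male germ line, had the largest difference among the members. Its intensity (1449170_at, Entrez Gene 57746) was 11.31 and 2.49 on control and 26.24 and 50.41 on knockout LT-HSC arrays. In MPPs it was 13.10 and 22.40 against 20.04 and 64.77, and in myeloid progenitors 14.97, 8.50 and 6.79 against 11.25, 37.09 and 33.32. The genotypes did not overlap in LT-HSCs, with 2 arrays each, and overlapped in MPPs and myeloid progenitors. The share of all probe sets without overlap was not counted. The knockout array was higher in 6 of 7 pairs, with myeloid pair 1 the other way. Over all probe sets 6.86% were higher on the knockout array in 6 or 7 of 7 pairs. Piwil2 differed by 1.23 ± 0.43 in LT-HSCs (2 arrays per genotype), by 0.70 ± 0.43 in MPPs (2), by 0.66 ± 0.35 in myeloid progenitors (3) and by 0.86 ± 0.23 on average (0.36 to 1.36). The average did not pass the limma test after adjustment (adjusted p = 0.338, range over the alternatives 0.0734 to 0.877), nor did LT-HSCs (adjusted p = 0.531), with an unadjusted limma p of 0.00234 and 0.0124.

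The size of the Piwil2 difference in MPPs moved with single arrays. It was 0.05 without knockout array 2, 1.36 without knockout array 1 and 0.43 without control array 1. The average was 0.65 and 1.09 without these 2 knockout arrays in turn, 1.61 with a pseudocount of 1 and 0.38 with 64. In LT-HSCs the difference ran from 0.51 with a pseudocount of 64 to 2.50 with 1, and from 0.95 without knockout array 2 to 1.51 without knockout array 1. In myeloid progenitors it ran from 0.28 with a pseudocount of 64 to 1.22 with 1, and from 0.50 without knockout array 2 to 0.94 without knockout array 1. No alternative run changed the sign or brought Piwil2 past the threshold. Knockout LT-HSCs also had more T and NK cell marker signal, with a sum over 10 markers of 1233 to 2210 against 799 to 1068 on control arrays. These sums overlapped between genotypes in MPPs (657 to 915 against 700 to 898) and in myeloid progenitors (380 to 454 against 340 to 431), and their part in the Piwil2 signal was not tested. Erythroid marker sums were higher in knockout MPPs, at 1686 to 1736 against 345 to 540, and Cd34 was lower there (310 to 615 against 748 to 1021). The B cell marker sums of the knockout MPP arrays ranged from 183 to 2549, against 303 to 658 on control arrays. The part of these markers in the Piwil2 signal was not tested either.

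The pattern of detection was shared by few probe sets. Detection on at least 5 knockout arrays and no control array, a rule set after the Piwil2 values were seen, held for 20 of 22626 probe sets (0.0884%). Of these, 12 had 1 gene symbol, and besides Piwil2 they were Tex19.1, Trap1a, Tex19.2, Rhox5, Rpl39l, the MHC class I gene H2-Bl, the piRNA pathway gene Asz1, and both probe sets of Dazl and of the testis bromodomain gene Brdt. Another 4 matched several symbols each (Pira1, Pira2 and Pirb; Xlr3a, Xlr3b and Xlr3c; Csta2 and Cstdc4; Tulp4 and Gm2808), and 4 had no symbol. No theme was tested in these 20, and for Piwil2 the pattern depended on the detection level. Control MPP array 2 was at 22.40, just below its 40th percentile of 23.52. At the 60th percentile Piwil2 was detected on 0 knockout arrays, and at the 90th percentile of the silent tissue list on 2 control arrays. The 3 genes nearest to Piwil2 over the 14 arrays were H2-Bl (r = 0.865), Crtam, a receptor of T and NK cells (0.847), and the testis and placenta antigen Trap1a (0.842). On MPP knockout array 1 and myeloid knockout array 1, where Piwil2 was not detected, Tex19.1 was at 257.74 and 192.55, below the 707.15 to 1023.31 of the other 5 knockout arrays, and Trap1a at 187.44 and 142.16, below their 237.79 to 1200.58. Rhox5 was low on the second of these arrays (22.95) and not on the first (328.90). These 2 arrays were picked after the values were seen, and the relation was not tested.

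The pluripotency genes stayed below the detection level. Pou5f1 (1417945_at, Entrez Gene 18999) encodes OCT4, the transcription factor at the core of that network. Its intensity was 11.50 and 6.43 on control and 7.01 and 4.91 on knockout LT-HSC arrays, 9.19 and 2.22 against 8.35 and 3.21 in MPPs, and 1.6, 9.44 and 2.79 against 7.37, 4.10 and 5.80 in myeloid progenitors. The genotypes overlapped in every population, and Pou5f1 differed by -0.01 ± 0.09 on average (-0.22 to 0.19).

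Zfp42 (1418362_at, Entrez Gene 22702) encodes REX1, a zinc finger protein used as a marker of naive pluripotent cells. Its intensity was 7.41 and 4.56 on control and 3.67 and 2.43 on knockout LT-HSC arrays, 6.46 and 2.49 against 7.19 and 2.37 in MPPs, and 2.86, 2.72 and 1.31 against 2.27, 2.84 and 2.25 in myeloid progenitors. The control values were above the knockout values in LT-HSCs and overlapped them elsewhere. Zfp42 differed by -0.06 ± 0.06 on average (-0.19 to 0.07), the narrowest interval of the 8 genes.

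**Figure D3:**
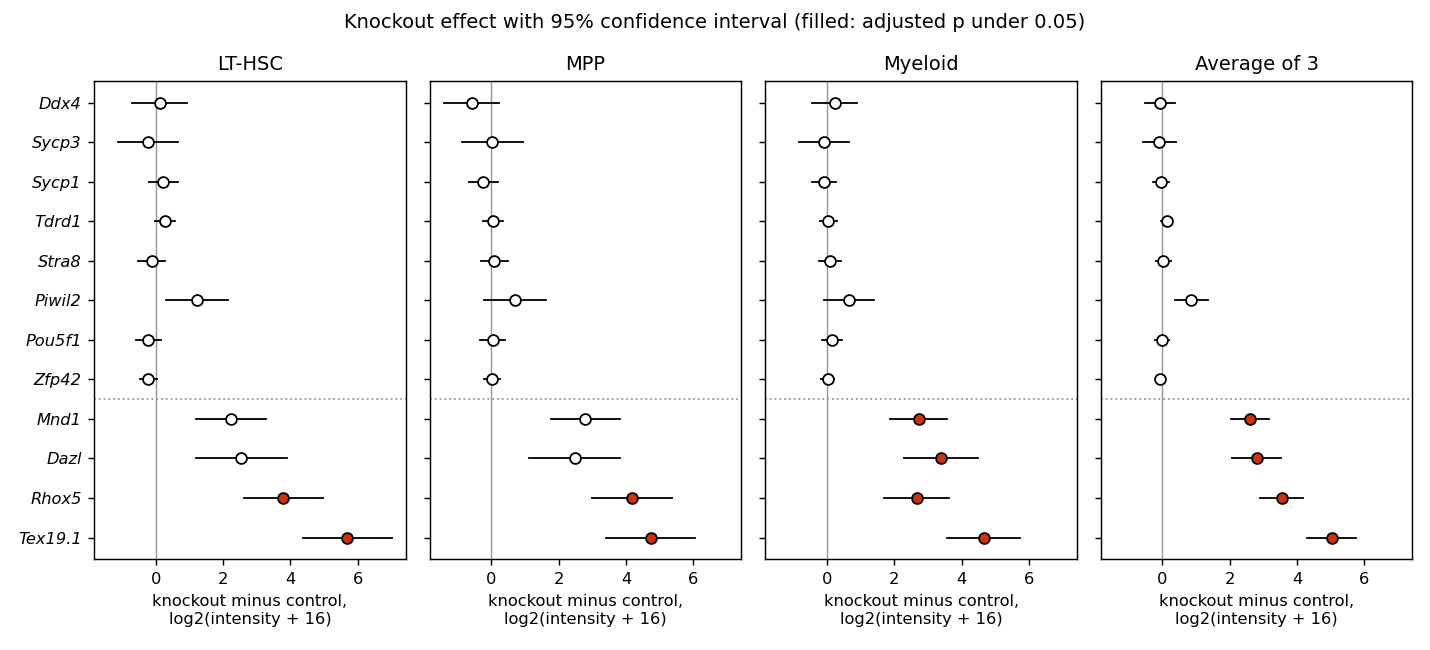
Knockout effect in log2(intensity + 16) units with its 95% confidence interval, for the 8 measured genes (above the dotted line) and 4 genes that rose, in each population and on average; filled points have an adjusted p under 0.05. The 8 genes have open points in all panels, with Piwil2 farthest from 0 at 0.86 on average, and the filled average points of the 4 others lie between 2.59 (Mnd1) and 5.03 (Tex19.1).

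On the same arrays other germline genes rose. Dazl, a translational regulator needed by germ cells, went from 1.39 to 7.56 on control arrays to 39.54 to 483.32 on knockout arrays (2.80 ± 0.34 on average, limma adjusted p = 0.00150). Each member was set against Dazl and against the homeobox gene Rhox5 by exchanging the genotypes within the 7 pairs. In all 16 comparisons the change was larger for Dazl or Rhox5 in 7 of 7 pairs, with a two-sided exact permutation p of 0.0156 (0.0156 after adjustment over the 16), the smallest these pairs can give. The change of Dazl was larger by 2.05 (Piwil2) to 2.97 (Sycp3), and that of Rhox5 by 2.58 to 3.51. Control arrays carried both genes near background, so the pseudocount sets these sizes. With a pseudocount of 64 the gap ran from 1.22 (Piwil2) to 1.63 (Sycp3) for Dazl and from 1.57 (Piwil2) to 1.98 (Sycp3) for Rhox5. With a pseudocount of 1 it ran from 3.17 (Piwil2) to 4.89 (Zfp42) for Dazl and from 4.30 (Piwil2) to 6.02 (Zfp42) for Rhox5, and the exact permutation p was 0.0156 in each case. Dazl and Rhox5 were chosen with their rise known, which largely set the outcome of these tests in advance. The differences and the permutation p therefore describe the gap and do not support it independently.

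Other genes of the piRNA pathway did not pass the threshold. Of 18 listed genes 6 were measured, by 8 probe sets, of which 0 passed on average by limma and 3 were detected on no array. Unadjusted, 2 of the 8 had a p under 0.05, both higher, where 3.03% of all probe sets did so. The median was -0.04, against -0.01 over all probe sets. This list and those below were chosen with earlier results of these data known, so their counts are no independent support. Asz1, which anchors piRNA processing at mitochondria, was at 1.25 ± 0.25 by probe set 1424939_at (adjusted p = 0.0868), with 1.25 to 3.42 on control and 2.17 to 68.70 on knockout arrays, higher in 7 of 7 pairs. It passed with the littermate pairs as blocks (adjusted p = 0.0323), without MPP knockout array 1 (0.00383), without myeloid progenitor knockout array 1 (0.0146) and with a pseudocount of 1 (0.0247). Its other probe set was at 0.52 (adjusted p = 0.567), Mov10l1, the helicase of piRNA precursors, at 0.32 (0.930) and Ddx25 at -0.11. Tdrd7, a tudor domain protein of germ granules, was not among the genes with the smallest p and is named outside that rule. It was detected on 7 control and 6 knockout arrays, at 39.14 to 114.43 and 19.49 to 121.64, so the genotypes overlapped.

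Meiotic chromosome genes included 1 gene that rose. Of 24 listed genes 16 were measured, by 18 probe sets, of which 1 rose on average, 0 fell, and 7 had an unadjusted p under 0.05 and a higher level (3.03% of all probe sets). The median was 0.23. Since the list was chosen with earlier results of these data known, these counts are no independent support for a rise of meiotic genes. Mnd1, a partner of the meiotic strand-exchange recombinase, rose by 2.59 ± 0.26 (limma adjusted p = 2.57e-04), from 126 to 313 on control arrays to 777 to 2483 on knockout arrays, and also passed in myeloid progenitors. Tex12, a central element protein of the synaptonemal complex, was at 1.06 (adjusted p = 0.208), and Hormad1, which marks unpaired chromosome axes, at 1.11 (0.314). Both were named after their values were seen and passed only without MPP knockout array 1 (0.0123 and 0.0483). The cohesin gene Stag3, also named after its values were seen, was at 0.94 and passed only with the pairs as blocks (0.0469).

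Among germ cell differentiation genes, Dazl and Dpep3 passed the threshold. Of 25 listed genes 22 were measured, by 28 probe sets, and 14 of these were detected on no array. On average 3 probe sets of 2 genes rose, both of Dazl and that of the testis dipeptidase Dpep3 (2.12 ± 0.29, limma adjusted p = 0.00333), 0 fell, and 8 had an unadjusted p under 0.05 and a higher level (3.03% of all probe sets). In myeloid progenitors 3 probe sets of 2 genes passed. The median was 0.06. This list too was chosen with earlier results of these data known, so it gives no independent support for a rise of such genes. Without LT-HSC knockout array 2 the count was 5, with Brdt at 1.30 (adjusted p = 0.0452) and Tex14, of the intercellular bridges between germ cells, at 0.94 (0.0485), both named after their values were seen.

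Most pluripotency and early embryo genes were silent like Pou5f1 and Zfp42. Of 22 listed genes 20 were measured, by 30 probe sets, and 23 of these were detected on no array, Nanog and Sox2 among them. On average 0 passed by limma, with 2 higher and 2 lower at an unadjusted p under 0.05 (3.03% and 2.65% of all probe sets) and a median of -0.00. Dppa4, a chromatin protein of early embryos, was at 0.69 (adjusted p = 0.233), with 1.72 to 7.19 on control and 7.90 to 35.11 on knockout arrays, higher in 7 of 7 pairs. It passed without LT-HSC knockout array 2 (0.83, adjusted p = 0.0344). Klf4 was at -0.78 (0.717) and Fgf4 at -0.16. Klf4 also works in blood cells and was detected on control arrays.

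**Figure D4:**
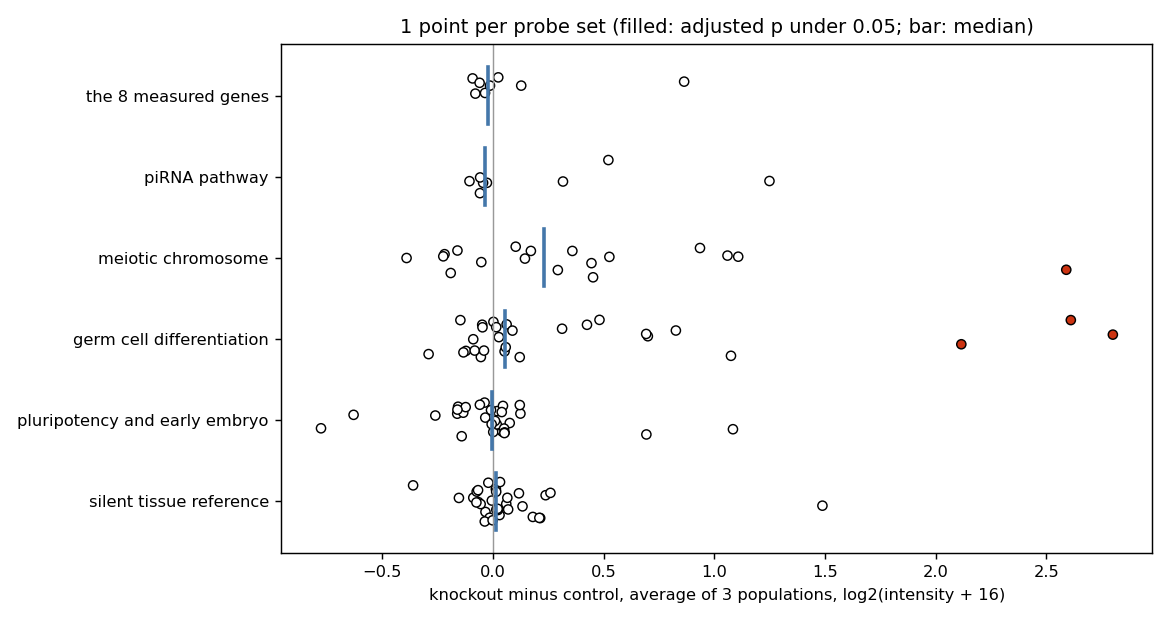
Average knockout effect in log2(intensity + 16) units, 1 point per probe set, for the 8 measured genes, 4 lists of related genes and the silent tissue list; filled points have an adjusted p under 0.05 and the bar is the median of a list. The filled points are Mnd1 at 2.59 among meiotic genes and 3 probe sets of Dazl and Dpep3 at 2.12 to 2.80, while the medians lie between -0.04 and 0.23. The lists were chosen with earlier results of these data known.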

How the data were processed

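The deposited values were linear intensities, and the sources used here do not give how the authors summarised and scaled them. RNA was amplified and biotin labelled, per the labels' protocols. Of 22690 probe sets, 64 controls were left out. Values were taken as log2(intensity + 16) and quantile normalized, since array medians differed by 0.19 and interquartile ranges by 0.32. A limma fit (3.58.1, R 4.3.3) of 6 group means with a variance trend (8 residual degrees of freedom) gave every comparison, from two-sided tests adjusted by Benjamini-Hochberg over all probe sets, with a threshold of 0.05. The fit was tested on simulated data. Numbers of arrays limit the precision, and p-values measure the spread between pools.

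Same-numbered arrays were littermates per the labels, and their deviations from group means correlated at r = 0.41 for LT-HSC pairs, 0.53 for MPP pairs and 0.19, 0.48 and 0.53 for the myeloid pairs. All members are named, with Dnmt1, Dazl, Rhox5 and Tex19.1. From each list, genes past the threshold in any knockout comparison are named, otherwise up to 3 with the smallest p. Other genes, such as Stag3, Tdrd7, Nanog and Sox2, are named outside this rule. Members and lists were chosen with earlier results of these data known. Promoters came from RefSeq (GRCm38.p6). Alternatives were the pairs as blocks, pseudocounts of 1 and 64, other normalizations, a filter on low values, no variance trend, other detection levels and leaving out each array. Python 3.11.15 with pandas 2.3.3 drew the plots and read the promoters.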

Additional observations from a re-analysis of the deposited data

How the results depend on the processing

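No member passed the threshold in any knockout comparison under any alternative run, and Piwil2 kept its sign throughout. With the littermate pairs as a replicate block, no member's call changed (Piwil2 on average had an adjusted p of 0.130), and the comparisons between control populations could not be fitted with the block. The counts on average moved with the block from 0 to 1 in the piRNA list, also with a pseudocount of 1, and from 1 to 2 in the meiotic list. With 1 array left out the counts ran from 0 to 1 (piRNA), 1 to 3 (meiotic), 3 to 5 (germ cell differentiation) and 0 to 1 (pluripotency). Small differences changed sign, none of them past the threshold. Without normalization the MPP difference was -0.012 for Sycp3 and -0.0038 for Tdrd1, and with a pseudocount of 1 the average was 0.030 for Ddx4, 0.067 for Sycp1 and 0.052 for Pou5f1. With 1 array left out, LT-HSC differences ran from -0.11 to 0.34 (Ddx4) and -0.49 to 0.025 (Sycp3). Those in MPPs ran from -0.31 to 0.37 (Sycp3), -0.54 to 0.059 (Sycp1), -0.12 to 0.23 (Tdrd1), -0.0053 to 0.18 (Stra8), -0.12 to 0.18 (Pou5f1) and -0.087 to 0.13 (Zfp42). In myeloid progenitors they ran from -0.027 to 0.45 (Ddx4), -0.33 to 0.22 (Sycp3), -0.21 to 0.10 (Sycp1), -0.018 to 0.12 (Tdrd1) and -0.016 to 0.060 (Zfp42), and the average from -0.23 to 0.068 (Ddx4), -0.21 to 0.023 (Sycp3), -0.14 to 0.063 (Sycp1), -0.013 to 0.062 (Stra8) and -0.064 to 0.036 (Pou5f1). At the 60th percentile as detection level Piwil2 was detected on 0 knockout arrays and Sycp3 on 2 arrays in place of 10. At the 90th percentile of the silent tissue list, 13.2 to 28.0, Piwil2 was detected on 2 control arrays. A filter for detection on 2 or more arrays removed never-detected members. It moved list medians to 0.42 (piRNA), 0.70 (germ cell) and -0.13 (pluripotency). A probe set could pass this filter through knockout arrays alone, as Asz1 (1424939_at) did with 0 control and 5 knockout arrays. The filtered medians therefore rest on a selection by level and are no support for a shift of a list. Genes below the detection level have no measured fold, so their intervals bound only signal near background. The causes of the other changes were not tested.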
